A study of Arabidopsis with 6 samples.

Results

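RNAi-21 seedlings were compared with wild-type (WT) Arabidopsis seedlings after 4 days of darkness and 2 h of light. RNAi-21 is labelled a PCD8 RNAi-21 mutant, meaning that PCD8 is the target of the RNA interference. The comparison uses 2 of the 6 libraries of the study, and the other 4 hold both genotypes at 0 h and 0.5 h of light. All groups shared half-strength MS medium and the 4 days of darkness, and the tissue of every library is labelled leaf. Each group is 1 library, so no value has a replicate error and no difference has a test. The promoter of the RNAi construct, any further RNAi line and the number of plants in a library are not given in the labels. No locus in the gene name table is called PCD8, so the targeted transcript is not analysed here and the genotype labels have no check from it.

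Of 19763 genes listed in both libraries, 17679 had at least 1 FPKM, a level scaled for transcript length and library size, in RNAi-21 or WT and were compared. Differences are RNAi-21 minus WT in log2(FPKM + 1), and adding 1 makes folds of weakly expressed genes look smaller. A difference of 1 or more in size is called 2-fold. FPKM summed to 891009 in RNAi-21 and 823287 in WT, and the read depth is unknown. The median difference of all genes was -0.02 as deposited and -0.12 once library totals were equalised without organelle genes.

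A dark-grown seedling elongates on stored reserves and keeps its plastids unfinished. Light slows elongation, starts chlorophyll and photosystem assembly, and turns down the genes that release carbon from amino acids in the dark. PCD8 is known as a plastid protein that binds enzymes of tetrapyrrole synthesis, the pathway of chlorophyll and haem.

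After 2 h of light, RNAi-21 exceeded WT by at least 2-fold in 106 genes (0.600% of those compared) and stood at least 2-fold below it in 41 (0.232%). Growth-promoting SAUR genes, seed storage genes, cold-regulated genes and a few wall, defence and jasmonate genes were among the higher ones. The asparagine synthetase gene ASN1, the xylem wall gene TED7 and U4.2, which encodes a small nuclear RNA, were among the lower ones. Most of the transcriptome differed little, with 92.2% of genes within 0.5 of 0, 47.1% above 0 and 52.9% below 0. Of the 106 higher genes 32 were under 1 FPKM in WT, and of the 41 lower genes 24 were under 1 FPKM in RNAi-21, so the filter fixed their direction. With at least 1 FPKM required in both libraries, 74 genes (0.437%) were higher and 17 (0.10%) lower. In 44 of the 106 higher genes and 21 of the 41 lower genes the FPKM stayed under 5 in both libraries. Levels of 50 FPKM or more in RNAi-21 or WT were reached by 13 of the higher and 4 of the lower genes.

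**Figure D1:**
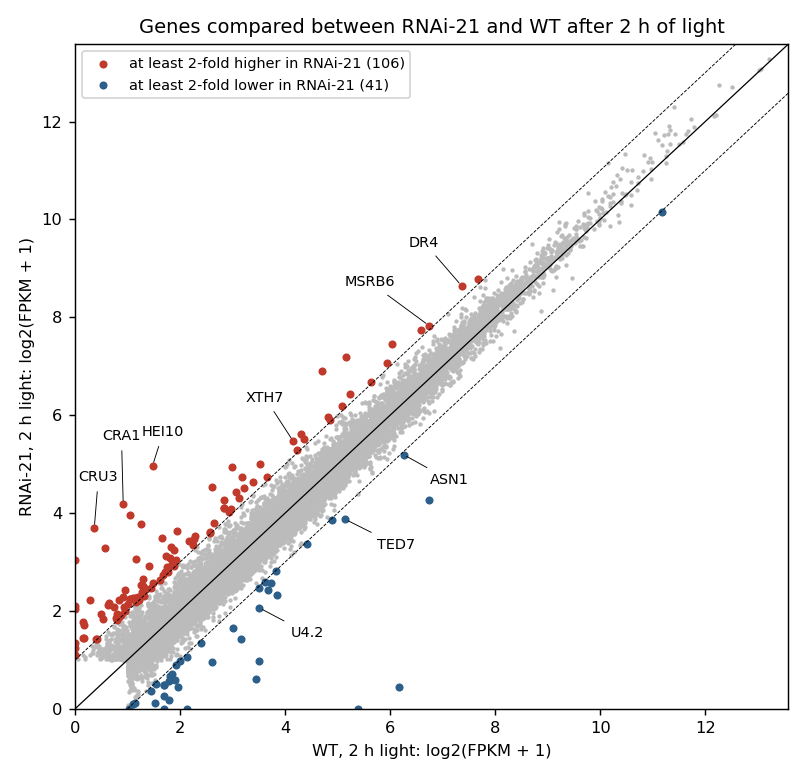
Each point is 1 of 17679 genes, with its level in WT on the horizontal axis and in RNAi-21 on the vertical axis, both as log2(FPKM + 1) after 2 h of light. The solid line marks equal levels and the dashed lines a 2-fold difference; the 106 higher genes (red) and 41 lower genes (blue) lie on or outside the dashed lines.

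The size of the difference followed gene length. When 17107 nuclear protein-coding genes were put in 10 equal classes by gene length, the median difference was 0.25 in the shortest class (129 to 1189 bp) and -0.31 in the longest (4691 to 27265 bp). Every class between them lay in order of length. In the shortest class 78.7% of genes were above 0 and in the longest 6.0%. The shortest class held 49 of the genes at least 2-fold higher and 9 of those lower, and the longest 0 and 2. Less expressed genes gave medians of 0.22 and -0.33 in the shortest and longest class, and more expressed genes 0.26 and -0.29. In the 0 h libraries the order ran the other way, from -0.08 in the shortest to 0.16 in the longest class, and at 0.5 h the medians were 0.01 and -0.09. The part of gene length in the differences of single genes was not tested. Values are therefore also given after centring, which subtracts the median difference of genes of like length. After centring, 61 genes (0.348%) met the 2-fold mark upwards and 52 (0.297%) downwards, with 49.5% of genes above 0 and 50.5% below. The share of higher among all called genes was 54.0%, against 72.1% before. Of the 106 higher genes 55 kept the call, as did 34 of the 41 lower ones.

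**Figure D2:**
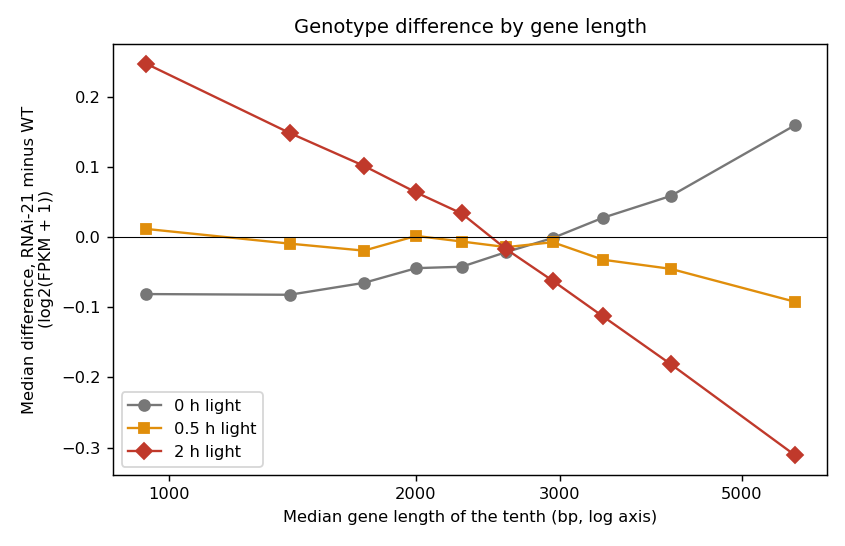
Median difference RNAi-21 minus WT, on the log2(FPKM + 1) scale, of 10 classes of protein-coding genes against their median length in bp on a log axis, with 1 line for each light time. The 2 h line runs from 0.25 in the shortest class to -0.31 in the longest, the 0 h line from -0.08 to 0.16 and the 0.5 h line from 0.01 to -0.09.

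SAUR genes encode small auxin-responsive proteins. Many of these promote cell elongation, and transcripts of many SAUR genes are known to be high in dark-grown hypocotyls. Of 24 SAUR growth genes, 23 were listed and 20 compared, and all 20 were higher in RNAi-21, 8 of them at least 2-fold and none lower. SAUR63 and SAUR15, which are among those 8, were under 1 FPKM in WT, so their direction was fixed by the filter. The other 18 had a median of 0.89, with 6 at least 2-fold higher. The FPKM of the 20 summed to 182.5 in RNAi-21 and 83.9 in WT. SAUR14 was the largest part of both sums, at 58.6 FPKM in RNAi-21 and 27.9 FPKM in WT. It was higher at 2 h than at 0 h in both lines (20.8 FPKM in RNAi-21 and 23.0 FPKM in WT at 0 h). The list median was 0.94, and 0.67 after centring, when 20 of 20 stayed above 0 and SAUR27 alone was at least 2-fold higher. The compared members are short, with a median length of 766.5 bp.

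SAUR27 had 6.52 FPKM in RNAi-21 and 1.66 FPKM in WT, a difference of 1.5. SAUR19, an activator of the proton pump that loosens walls, had 6.81 FPKM in RNAi-21 and 2.58 FPKM in WT (1.12). SAUR63 stood at 3.26 FPKM in RNAi-21 and 0.90 FPKM in WT (1.17), and SAUR16 at 9.19 and 3.71 FPKM (1.11). Earlier, SAUR19 had 63.5 FPKM in RNAi-21 and 72.7 FPKM in WT at 0 h, and 7.94 and 4.07 FPKM at 0.5 h. SAUR19 was thus lower at 2 h than in the dark in both lines, and lower in WT than in RNAi-21 at 0.5 h and 2 h. The list median was 0.01 at 0 h and 0.31 at 0.5 h. SAUR19 to SAUR24 are near-identical copies whose reads the authors' counting could split, and each of their levels is uncertain. Over all genes named SAUR, 68 were listed and 58 compared. Of these, 54 were above 0, 11 at least 2-fold higher and none 2-fold lower, with a median of 0.58. After centring 46 of the 58 were above 0, 2 were at least 2-fold higher and the median was 0.32. Of the 58, 8 were under 1 FPKM in WT and 1 in RNAi-21, so the filter fixed their direction. Without centring, 46 of the other 49 were above 0, with a median of 0.53.

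**Figure D3:**
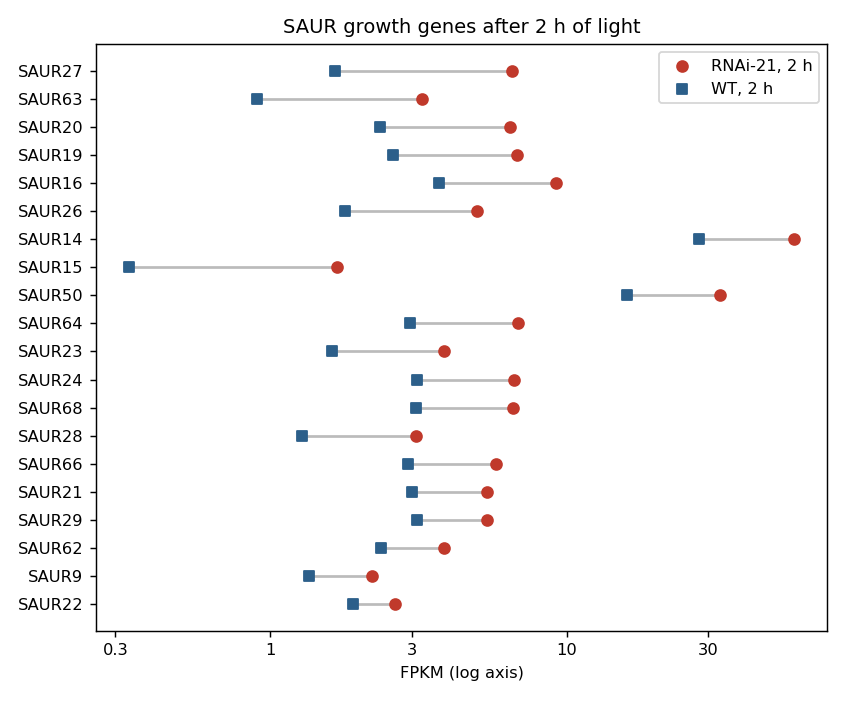
FPKM on a log axis of the 20 compared SAUR growth genes after 2 h of light, with RNAi-21 as circles, WT as squares and a line joining the 2 values of a gene. RNAi-21 lies to the right of WT for all 20 genes, from the largest difference (SAUR27, 1.5) down.

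Other growth genes differed less. Expansins and xyloglucan endotransglucosylases, which loosen and rejoin the wall, had a median of 0.19 (0.18 after centring), with 23 of 31 above 0 and 1 at least 2-fold higher. XTH7 had 43.4 FPKM in RNAi-21 and 16.8 FPKM in WT (1.32), and it was also higher at 0 h (1.14) and 0.5 h (1.38). XTH16 had 62.1 FPKM in RNAi-21 and 30.7 FPKM in WT (0.99). Auxin signalling and transport genes had a median of 0.07 over 34 members, which turned to -0.04 with totals equalised, with the repressor IAA3 at 38.6 FPKM in RNAi-21 and 24.9 FPKM in WT (0.61). The aquaporin list had a median of 0.15 (0.06 after centring), with 16 of 23 above 0.

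Several seed storage and oil body genes were higher in RNAi-21 at 2 h, at low levels. Of 19 such genes 15 were listed and 10 compared, with 9 above 0, 4 at least 2-fold higher and a median of 0.91 (0.67 after centring). Of these 10, 7 were under 1 FPKM in WT and were compared only because of their level in RNAi-21, so the filter fixed their direction. The other 3 had a median of 0.29, with 2 above 0. The 12S cruciferin gene CRU3 had 11.96 FPKM in RNAi-21 and 0.29 FPKM in WT (3.33). CRA1, a related cruciferin, had 17.2 FPKM in RNAi-21 and 0.89 FPKM in WT (3.27), and the 2S albumin gene SESA5 8.74 and 0.49 FPKM (2.71). The oil body protein gene OLEO2 had 10.1 FPKM in RNAi-21 and 3.80 FPKM in WT (1.21). CRU3, CRA1 and SESA5 had opposite directions at 0.5 h and 2 h. CRU3 had 2.14 FPKM in RNAi-21 and 0.17 FPKM in WT at 0 h, but 5.51 FPKM in RNAi-21 and 84.7 FPKM in WT at 0.5 h. The list median was -1.45 at 0.5 h and -0.05 at 0 h.

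Late embryogenesis abundant (LEA) and dehydrin genes, whose proteins protect cells during drying and cold, were higher in 18 of 20 compared members, 3 of them at least 2-fold, with a median of 0.32. M17 is 1 of the 3 and was under 1 FPKM in WT, so its direction was fixed by the filter, and the other 19 had a median of 0.31. After centring the median was 0.11 and 13 of 20 stayed above 0. KIN2, a cold-regulated protein gene, had 2267 FPKM in RNAi-21 and 1141 FPKM in WT (0.99). At 0 h it had 44.4 FPKM in RNAi-21 and 48.2 FPKM in WT, and at 0.5 h 153 and 52.4 FPKM. KIN1, a tandem near-copy of KIN2 whose values are uncertain for that reason, had 112 FPKM in RNAi-21 and 57.1 FPKM in WT (0.96). COR15A, a cold-regulated chloroplast protein gene, had 7.43 FPKM in RNAi-21 and 2.49 FPKM in WT (1.27). The 2 members below 0 were RD29A, with 202 FPKM in RNAi-21 and 276 FPKM in WT (-0.447), and RD29B (-0.165). Both lines had higher KIN2 at 2 h than at 0 h, and RNAi-21 was above WT at 0.5 h and 2 h.

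Defence, jasmonate and redox genes gave several of the higher named genes. CYP71A12, a P450 of indole defence metabolism, had 10.2 FPKM in RNAi-21 and 2.14 FPKM in WT (1.83), against 11.8 and 6.85 FPKM at 0 h. Its list had a median of 0.18 (0.12 after centring), with 14 of 22 above 0 and 1 at least 2-fold higher. The glutathione transferase gene GSTF6 of the same list had 131 FPKM in RNAi-21 and 69.4 FPKM in WT (0.91). The other 8 members of the list were below 0, with WRKY33 the lowest at 32.0 FPKM in RNAi-21 and 45.6 FPKM in WT (-0.50). Jasmonate genes had a median of 0.12 (0.05 after centring) with 17 of 24 above 0. Of the 24, 2 were under 1 FPKM in WT, so the filter fixed their direction. Of the other 22, 15 were above 0, with a median of 0.10. The storage protein gene VSP2 had 7.76 FPKM in RNAi-21 and 2.33 FPKM in WT (1.4). MSRB6, a methionine sulphoxide reductase, had 227 FPKM in RNAi-21 and 106 FPKM in WT (1.09), against 1.99 and 1.38 FPKM at 0 h. DR4, named for repression by drought, had 399 FPKM in RNAi-21 and 163 FPKM in WT (1.29), and the methyltransferase gene PXMT1 61.2 and 27.0 FPKM (1.15).

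Salicylate and defence genes had 10 members above and 8 below 0, with a median of 0.03 over 18 members that turned to -0.05 with totals equalised. The NPR1-interacting regulator NIMIN1 was the 1 member at least 2-fold lower, with 0.14 FPKM in RNAi-21 and 2.46 FPKM in WT (-1.61). It was compared only because of its level in WT, so the filter fixed its direction. WRKY70 was lower by 0.76. AZI1, a defence priming lipid transfer protein, had 350 FPKM in RNAi-21 and 217 FPKM in WT (0.68). In the ethylene list 17 of 24 members were below 0 and the median was -0.12. Early stress genes had a median of -0.06, or -0.17 after centring, with 14 of 34 above 0 and 20 below. Of the 34, 1 was under 1 FPKM in WT and 1 in RNAi-21, so the filter fixed their direction. ERF105 was the highest, at 17.9 FPKM in RNAi-21 and 9.22 FPKM in WT (0.89), and WRKY40 the lowest (-0.61). BAP1 (0.79), TCH2 (0.78) and CML38 (0.67) also lay further from 0 than WRKY40.

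Amino acid breakdown and dark starvation genes were lower in RNAi-21. Of 31 such genes 27 were listed and 26 compared, and 25 of 26 were below 0, 1 of them at least 2-fold, with a median of -0.32 (-0.24 after centring, when 24 of 26 stayed below 0). Their FPKM summed to 2211 in RNAi-21 and 2621 in WT. ASN1, the asparagine synthetase gene that is high in darkness, had 35.6 FPKM in RNAi-21 and 75.3 FPKM in WT (-1.06). BCAT-2, a branched-chain aminotransferase, had 20.1 FPKM in RNAi-21 and 41.0 FPKM in WT (-0.99), and MCCA, a leucine breakdown carboxylase subunit, 33.5 and 60.1 FPKM (-0.83). The senescence-associated SEN1 had 38.6 FPKM in RNAi-21 and 65.1 FPKM in WT (-0.74). At 0 h ASN1 had 312 FPKM in RNAi-21 and 370 FPKM in WT, and at 0.5 h 231 and 423 FPKM. The list median was -0.03 at 0 h and -0.31 at 0.5 h.

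Secondary wall and xylem genes were lower in 25 of 29 compared members, with a median of -0.23 that did not move with centring, when 23 of 29 were below 0. VND7 was under 1 FPKM in RNAi-21, so the filter fixed its direction. Of the other 28, 24 were below 0, with a median of -0.21. TED7, a protein needed for the wall of water-conducting vessels, had 13.6 FPKM in RNAi-21 and 34.3 FPKM in WT (-1.27), the only member at least 2-fold lower. TED6, its relative, had 34.4 FPKM in RNAi-21 and 54.6 FPKM in WT (-0.65), and the laccases LAC11 and LAC17, which polymerise lignin, differed by -0.72 and -0.54. Above 0 were 4 members, among them the cellulose synthase gene CESA4. It had 80.0 FPKM in RNAi-21 and 70.9 FPKM in WT (0.17, or 0.445 after centring). TED7 was close in both lines at 0 h (31.0 FPKM in RNAi-21, 36.2 FPKM in WT) and at 0.5 h (33.3 and 39.1 FPKM). The list median was -0.05 at 0 h and -0.04 at 0.5 h. In bulk seedlings, fewer cells of a type and less RNA per cell cannot be told apart.

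**Figure D4:**
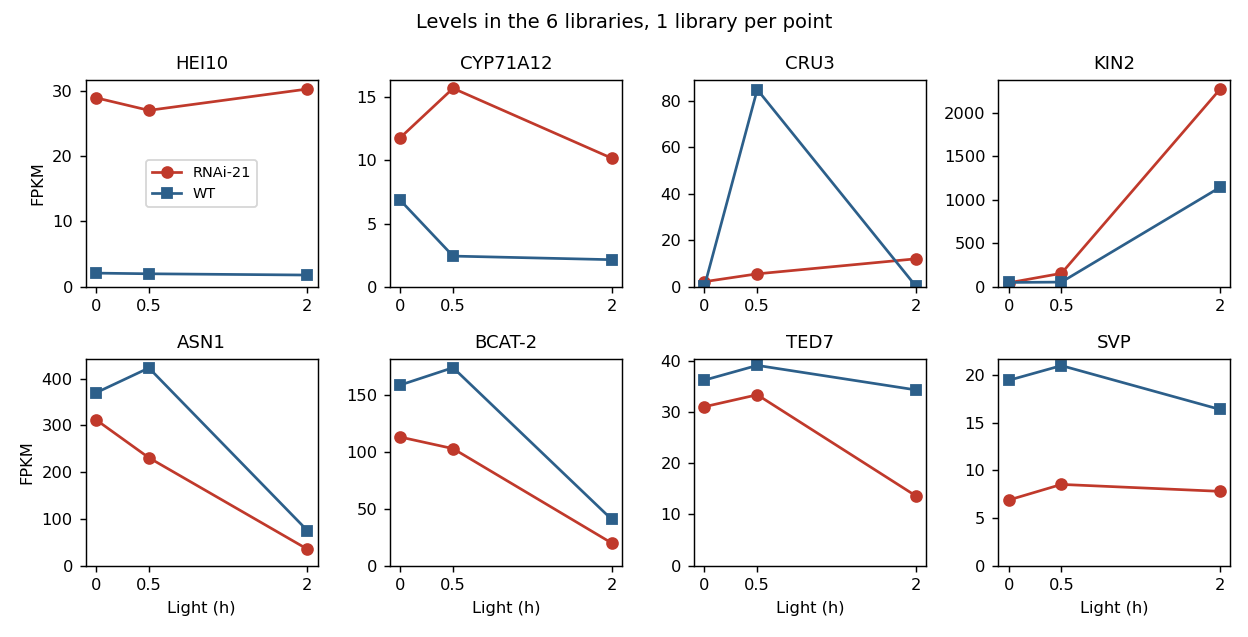
FPKM of 8 genes in the 6 libraries, 1 library per point, with hours of light on the horizontal axis and RNAi-21 as circles and WT as squares. HEI10, CYP71A12 and KIN2 are higher in RNAi-21 at 2 h, as is CRU3, which was far higher in WT at 0.5 h, while ASN1, BCAT-2, TED7 and SVP are lower in RNAi-21 at 2 h.

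The photosynthesis lists were slightly higher in RNAi-21 and moved toward 0 after centring. Genes of the photosystems and of electron transport gave a median of 0.28 (0.12 after centring) with 28 of 30 above 0 and none at least 2-fold. The ATP synthase subunit ATPD had 187 FPKM in RNAi-21 and 129 FPKM in WT (0.53), and the ferredoxin FD1 926 and 644 FPKM (0.52). Light-harvesting genes had a median of 0.18 (0.04 after centring) with 16 of 20 above 0, and LHCB1.1 had 677 FPKM in RNAi-21 and 509 FPKM in WT (0.41). The LHCB1 copies can share reads, and so can RBCS copies, which makes each of their levels uncertain. Carbon fixation genes had a median of 0.12 (0.10 after centring, and 0.012 at the lowest of the settings run) with 14 of 18 above 0. At 0.5 h these 3 lists had medians of -0.50, -0.54 and -0.46. The tetrapyrrole list had a median of 0.12 (0.08 after centring, and 0.006 at the lowest of the settings run), with 16 of 26 above 0. PCB2, a divinyl reductase of chlorophyll synthesis, had 7.99 FPKM in RNAi-21 and 4.60 FPKM in WT (0.68). CHLD, a Mg-chelatase subunit, had 21.2 FPKM in RNAi-21 and 28.5 FPKM in WT (-0.41).

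Flavonoid genes, which light activates, had a median of 0.22 (0.29 after centring) with 13 of 18 above 0. Of the 18, 2 were under 1 FPKM in WT and 1 in RNAi-21, so the filter fixed their direction. Of the other 15, 11 were above 0, with a median of 0.23. CHS, chalcone synthase, had 292 FPKM in RNAi-21 and 165 FPKM in WT (0.82), and the anthocyanin regulator MYB75 8.42 and 4.87 FPKM (0.68). Both lines had CHS under 2 FPKM at 0 h, with 1.97 FPKM in RNAi-21 and 1.61 FPKM in WT. Light signalling genes had a median of 0.22 (0.12 after centring) with 17 of 25 above 0, and ELIP1 had 817 FPKM in RNAi-21 and 616 FPKM in WT (0.41). At 0.5 h that list had a median of 0.41.

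Heat shock and clock genes were lower in RNAi-21 at 2 h. Heat shock members gave a median of -0.21 (-0.24 after centring), with 20 of 25 below 0 and none at least 2-fold. BIP3 was under 1 FPKM in RNAi-21, so the filter fixed its direction. Of the other 24, 19 were below 0, with a median of -0.22. The disaggregase HSP101 had 55.9 FPKM in RNAi-21 and 94.1 FPKM in WT (-0.74), and the cochaperone BAG6 14.0 and 26.9 FPKM (-0.89). At 0.5 h HSP101 had 53.4 FPKM in RNAi-21 and 25.1 FPKM in WT, and the list median was 0.62. The clock list had a median of -0.20 (-0.17 after centring), with 23 of 26 below 0, and the evening gene TOC1 had 31.0 FPKM in RNAi-21 and 44.8 FPKM in WT (-0.52). Median gene lengths were 2363 bp in the heat shock list and 3121.5 bp in the clock list, beside 2414 bp over all genes compared.

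HEI10, a ligase that sets the number of meiotic crossovers, had the highest difference among genes with a symbol and at least 5 FPKM in RNAi-21 or WT, at 30.3 FPKM in RNAi-21 and 1.78 FPKM in WT. Its difference of 3.49 at 2 h was 3.28 at 0 h and 3.24 at 0.5 h. Of the 106 higher genes, 9 were at least 2-fold higher at all 3 times and 71 at 2 h alone. At 0.5 h, 30 of the 106 were at least 2-fold higher and 9 lower, beside 0.809% and 0.305% of all genes, and at 0 h 14 and 1, beside 0.147% and 0.328%. Of the 41 lower genes, 5 were lower at all 3 times and 29 at 2 h alone; 5 were lower and 3 higher at 0.5 h, and 12 lower and 1 higher at 0 h. SVP, a floral repressor, had 7.80 FPKM in RNAi-21 and 16.4 FPKM in WT (-0.98), and it was lower at 0 h (-1.37) and 0.5 h (-1.21). The small nuclear RNA gene U4.2 had 3.18 FPKM in RNAi-21 and 10.4 FPKM in WT (-1.44). NAS2, a nicotianamine synthase of metal transport, was lower by 0.93 and the copper transporter COPT2 by 0.84.

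The other genes at either end were of mixed function. The plant defensin gene LCR67 had 16.3 FPKM in RNAi-21 and 6.16 FPKM in WT (1.27), and the sulphotransferase gene ST4B 9.72 and 3.47 FPKM (1.26). IDL1, which encodes a small secreted peptide, had 10.5 FPKM in RNAi-21 and 3.85 FPKM in WT (1.25), and the retroelement transcript SADHU3-2 23.7 and 9.52 FPKM (1.23). At the lower end, the B-box gene BBX17 had 8.25 FPKM in RNAi-21 and 17.1 FPKM in WT (-0.97), and INO80, a chromatin remodelling ATPase encoded by a long gene, 15.8 and 29.5 FPKM (-0.86, or -0.51 after centring). PPDK, pyruvate orthophosphate dikinase, had 27.4 FPKM in RNAi-21 and 49.2 FPKM in WT (-0.82), and the BTB domain gene BT1 34.3 and 58.4 FPKM (-0.75). The chaperone gene Hsp70b had 36.5 FPKM in RNAi-21 and 61.7 FPKM in WT (-0.74).

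The medians of most remaining lists were within 0.1 of 0. Antioxidant genes had a median of 0.09 over 29 members (-0.03 with totals equalised), guard cell markers 0.05 over 9 (-0.03, and -0.01 over the members with at least 1 FPKM in both libraries), and gibberellin and brassinosteroid genes 0.02 over 37 (-0.07). The median of phenylpropanoid genes was -0.01 over 14 members, which turned to 0.01 with median-ratio scaling. Cell cycle genes were at -0.05 over 34 members and nutrition genes for iron, nitrate and sulphate at -0.05 over 32. PIF and shade genes were at -0.07 over 23, or 0.02 after centring. Those PIF and shade genes with at least 1 FPKM in both libraries had a median of -0.13. The 4 compared spliceosomal RNA genes had a median of -0.04. The 6 compared aliphatic glucosinolate genes stood further off, with a median of 0.23 (0.28 after centring) that turned to -0.05 with no filter.

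A few loci without a symbol, chosen after their values were seen, also differed widely. The pseudogene AT2G05660 had 0.37 FPKM in RNAi-21 and 70.5 FPKM in WT (-5.71), with differences of -6.15 and -5.80 at 0 h and 0.5 h. AT4G14280 was listed at 0 in RNAi-21 and at 41.0 FPKM in WT at 2 h, at 5.999 FPKM in RNAi-21 and 0 in WT at 0.5 h, and at 0 in both lines at 0 h. The non-coding gene AT4G04223 had 119 FPKM in RNAi-21 and 24.9 FPKM in WT (2.21), and AT2G16005 145 and 34.8 FPKM (2.03).

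Marker lists bear on the labelled tissue. Light-harvesting genes summed to 13781 FPKM in RNAi-21 and 12661 FPKM in WT, with none of 20 at 0. Root markers were also present: 26 of 28 listed were compared, none of these was at 0, and they summed to 8435 FPKM in RNAi-21 and 6672 FPKM in WT, of which PYK10, a root and hypocotyl glucosidase, made 6889 and 4936 FPKM. For root markers the median was -0.11 (-0.04 after centring), with 12 of 26 above 0 and 14 below. Of the 26, 2 were under 1 FPKM in WT and 1 in RNAi-21, so the filter fixed their direction. The root growth peptide gene RGF9 was the highest, at 30.9 FPKM in RNAi-21 and 10.5 FPKM in WT (1.47). At the other end were RHD2 (-0.48) and IRT1, at 6.06 FPKM in RNAi-21 and 8.76 FPKM in WT (-0.47). Xylem markers summed to 429 FPKM in RNAi-21 and 517 FPKM in WT. Guard cell markers summed to 468 FPKM in RNAi-21 and 476 FPKM in WT, of which CYP86A2 alone made 398 and 413 FPKM. The part of tissue composition in the list medians was not tested.

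**Figure D5:**
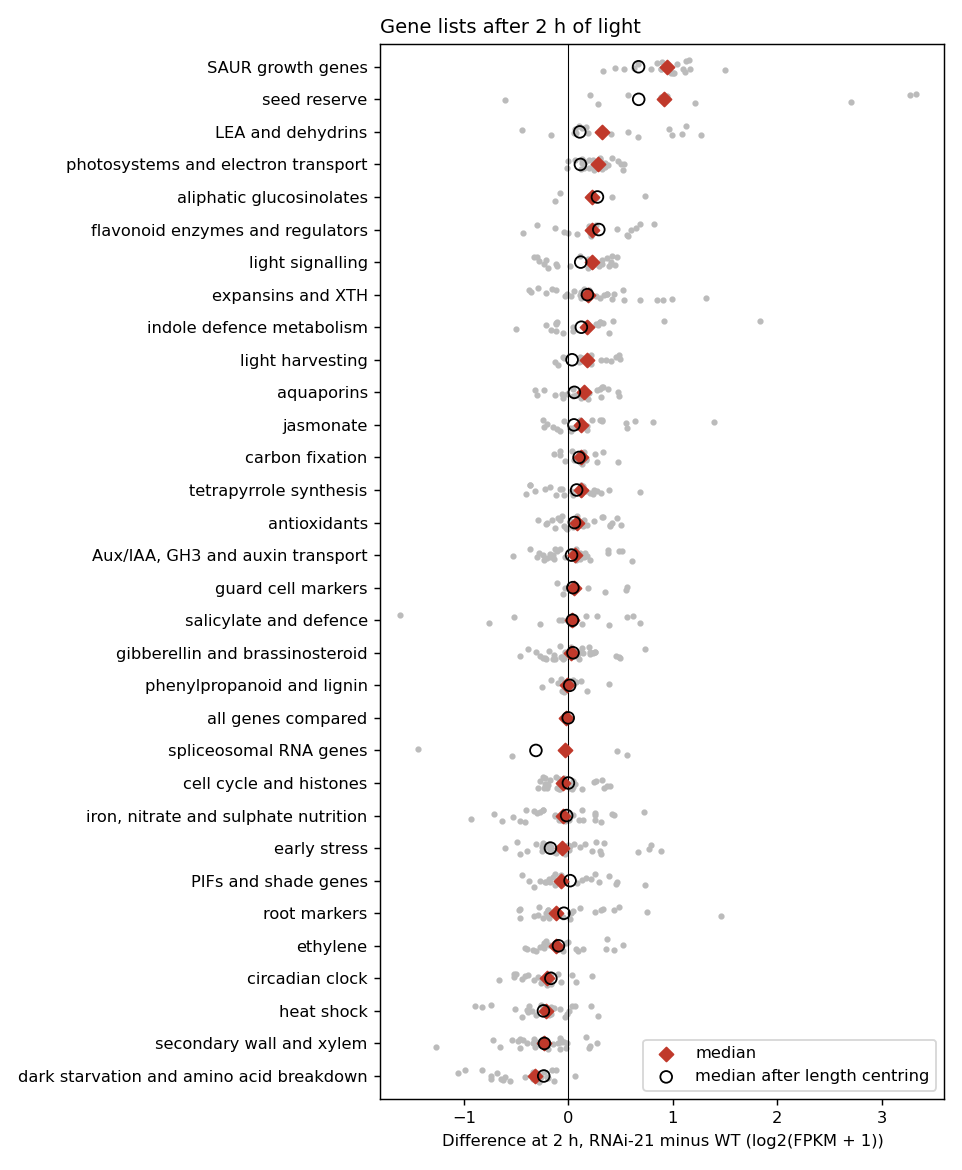
Differences RNAi-21 minus WT at 2 h on the log2(FPKM + 1) scale for the compared members of 31 gene lists (grey points), with the list median (red diamonds) and the median after length centring (open circles), ordered by median. SAUR growth genes and seed reserve genes lie at the top, with medians of 0.94 and 0.91, and dark starvation genes at the bottom with -0.32. Of the 10 seed reserve genes, 7 were under 1 FPKM in WT, so the filter fixed their direction, and the other 3 had a median of 0.29. The same held for 2 of the 20 SAUR genes, and the other 18 had a median of 0.89.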

How the data were processed

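Total RNA was sequenced from 6 libraries, 1 for each of 6 groups, and the 2 libraries at 2 h of light were compared. Per the submitters' processing notes, the tools included HISAT and Bowtie2, with no version. How levels were quantified, on which build and with which gene models, is not given in the sources used here. Values deposited by the authors were taken to be FPKM. This unit was inferred from the values, and a partial table of TPM cannot be told apart from it. No counts were used, so depth is unknown.

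Tables were joined on locus, genes with at least 1 FPKM in RNAi-21 or WT were kept, and log2(FPKM + 1) differences were taken. Names, gene types and gene lengths came from the RefSeq TAIR10.1 table, which held 17530 of the 17679 compared loci. Length centring used 20 length bins of nuclear protein-coding genes. It was tested on simulated data.

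Genes were named by a rule: with a symbol and at least 5 FPKM in RNAi-21 or WT, the 15 highest and the 15 lowest differences were taken, then the 5 highest and 5 lowest at 50 FPKM or more, and up to 5 members of each list with the largest differences. In addition, 4 loci without a symbol were chosen after their values were seen. The members and 31 lists were chosen with earlier results of these data known. Alternatives were other pseudocounts, filters, scalings and thresholds. Python 3.11.15, pandas 2.3.3, numpy 2.4.6 and matplotlib 3.10.9 were used.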

Additional observations from a re-analysis of the deposited data

Results flagged for a closer look

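In 4 seed genes the genotype difference had opposite signs at 0.5 h and 2 h of light, with a size of at least 1 at both times. CRU3 differed by 3.33 at 2 h and by -3.72 at 0.5 h. CRA1 differed by 3.27 at 2 h and by -2.85 at 0.5 h. SESA5 differed by 2.71 at 2 h and by -1.75 at 0.5 h. M17, a seed LEA gene, differed by 1.08 at 2 h and by -1.35 at 0.5 h. At 2 h all 4 genes were under 1 FPKM in WT, so the filter fixed their direction at that time. Each time has 1 library per line, so the difference between the times was not tested. All 4 genes had their highest level in the WT library at 0.5 h.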

How the results depend on the processing

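No paired analysis was possible because each group holds 1 library. For the same reason no library could be left out. The 106 higher and 41 lower genes became 266 and 126 with a pseudocount of 0.1, 30 and 8 with a pseudocount of 5, 62 and 20 with an FPKM filter of 5, 11 and 6 with a 4-fold threshold, and 80 and 45 with equalised totals. Among alternatives chosen after seeing the data, length centring gave 61 and 52 and a filter of 1 FPKM in both libraries 74 and 17. Of 170 named genes, 24 were past 2-fold upwards and 4 downwards. A pseudocount of 5 gave 10 and 1, a 4-fold threshold 4 and 0, and the lower count was 9 with a pseudocount of 0.1, 8 with equalised totals and 7 with length centring. Of 31 list medians, 22 did not turn to the opposite sign under any setting run. One of the 22, that of the spliceosomal RNA genes, ranged from -0.311 to 0.0. With equalised totals the sign turned for auxin genes (-0.044), guard cell markers (-0.027), salicylate genes (-0.053), antioxidants (-0.028) and gibberellin and brassinosteroid genes (-0.071). The FPKM filter of 5 and the filter on both libraries each turned guard cell markers (-0.011), the filter of 5 also cell cycle genes (0.042), and no filter turned aliphatic glucosinolates (-0.045). Phenylpropanoid genes turned with median-ratio scaling (0.01) and length centring (0.012), and PIF and shade genes with length centring (0.016). The cause was not tested. Without replicates or depth, none of these sizes can be set against the spread between plants.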

Other observations

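Most organelle-encoded transcripts were lower in RNAi-21 at 2 h, and their medians were further from 0 before light. The 14 compared plastid-encoded genes had a median difference of -0.39, against -1.41 at 0 h and -1.09 at 0.5 h. Of the 14, 11 were below 0, beside 52.9% of all genes. At least 2-fold lower were 2 and higher 1, beside 0.232% and 0.600% of all genes. The higher one, ATCG00210, was listed at 0 in WT. Plastid-encoded FPKM summed to 166 in RNAi-21 and 222 in WT at 2 h, out of 891009 and 823287 over all genes. The 22 mitochondrion-encoded genes had a median of -0.19, against -0.92 at 0 h and -0.47 at 0.5 h. Of the 22, 16 were below 0, with 3 at least 2-fold lower and none 2-fold higher. Outside the organelles, the 1 compared rRNA gene differed by -1.02 at 2 h and -2.01 at 0 h. The 7 compared small nuclear RNA genes had medians of 0.45 at 2 h and -0.61 at 0 h. The part of RNA selection during library preparation in the organelle values was not tested.

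Nitrate reductase genes were lower in RNAi-21: NIA1 had 107 FPKM in RNAi-21 and 156 FPKM in WT (-0.53), and NIA2 209 and 325 FPKM (-0.64). The nitrile specifier protein gene NSP1, which directs glucosinolate breakdown, had 987 FPKM in RNAi-21 and 595 FPKM in WT (0.73).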
